A study of Mus musculus with 3 samples.

Results

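The 10 genes described here encode secreted proteins of the extracellular matrix that do not themselves form its main fibres. They were chosen by name, as members of these families, with earlier results of these data known. All were found by Ensembl identifier and mouse symbol among the 46603 genes counted. Decorin (Dcn), biglycan (Bgn), fibromodulin (Fmod) and lumican (Lum) are 4 small leucine-rich proteoglycans. Sparc, osteopontin (Spp1), thrombospondins 1 and 2 (Thbs1 and Thbs2), tenascin C (Tnc) and periostin (Postn) are 6 matricellular genes. The cells were KO-actin MEFs, β-actin knockout mouse embryonic fibroblasts that were given a β-actin with a nuclear localization signal (NLS). Polyadenylated RNA of 3 libraries, replicates 1 to 3, was sequenced. All 3 carry the same genotype and no treatment is given, so the values describe these cells alone and give no change against knockout or wild-type MEFs, which were not analysed here. The study describes the KO-actin cells as a line made earlier. Whether the libraries came from separate cultures or from 1 clone is not given. The spread between libraries, on which each SD and p-value below rests, may therefore be technical. Poisson and counting intervals cover counting error only.

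Small leucine-rich proteoglycans share a core of leucine-rich repeats, and most carry glycosaminoglycan chains. Decorin, fibromodulin and lumican bind collagen and set the diameter and spacing of its fibrils, and decorin and biglycan also bind growth factors of the TGF-β family. Matricellular proteins are placed in the matrix but act mainly as signals: they bind collagen, growth factors, proteases and cell surface receptors such as integrins, CD44 and CD47. In adult connective tissue, fibroblasts are the best known source of decorin and lumican, whereas tenascin C, thrombospondin 1 and periostin are best known from embryonic, wounded or remodelling tissue.

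The libraries held 49932446, 49587453 and 44383636 counts. Levels are given as CPM, the usual depth-scaled unit of read counts, with library totals corrected by TMM factors between 0.994 and 1.01. Levels of single genes are compared with each other as CPM per kilobase of exon, while shares and sums over the genes are given in CPM, which weights long transcripts more. A count of 0 allows a level of up to 3 counts, equal to 0.0601, 0.0609 and 0.0671 CPM in replicates 1 to 3, a limit that covers counting error only. Actb, the targeted gene, had 1078, 1114 and 1063 CPM, and counts per gene do not separate the NLS-tagged transcript from any other Actb transcript. All 10 fibroblast markers examined were above 3 counts in each library, from Vim at 4563 CPM down to Thy1 at 0.836 CPM. Of 6 macrophage markers, 2 were above 3 counts in each library, Cd68 with 8.57 CPM and Csf1r with 16, 6 and 11 counts. Lyz2 had 1, 12 and 2 counts and Itgam 0, 2 and 5. Ptprc and Adgre1, defining markers of white blood cells and macrophages, had at most 1 count in any library.

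The table of RefSeq promoters used here held 7 of the 10 genes, all but Dcn, Lum and Thbs1. The 250 bases before the RefSeq start (GRCm38.p6) are shown for the highest gene of each class, Fmod and Sparc, and for a low gene of each class, Bgn and Thbs2, because the contrast of high and low genes inside each class is the main pattern of the data. They lie at chr1:134037004-134037253 on the plus strand (Fmod), chrX:73483351-73483600 on the plus strand (Bgn), chr11:55420081-55420330 on the minus strand (Sparc) and chr17:14694263-14694512 on the minus strand (Thbs2). Each is written 5′ to 3′ along the gene, and capitals mark matches to a motif on either strand.
Fmod: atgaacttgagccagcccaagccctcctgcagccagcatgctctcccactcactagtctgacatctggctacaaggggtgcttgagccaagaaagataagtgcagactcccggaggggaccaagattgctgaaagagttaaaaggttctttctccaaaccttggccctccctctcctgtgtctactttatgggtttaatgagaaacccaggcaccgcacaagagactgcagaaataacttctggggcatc
Bgn: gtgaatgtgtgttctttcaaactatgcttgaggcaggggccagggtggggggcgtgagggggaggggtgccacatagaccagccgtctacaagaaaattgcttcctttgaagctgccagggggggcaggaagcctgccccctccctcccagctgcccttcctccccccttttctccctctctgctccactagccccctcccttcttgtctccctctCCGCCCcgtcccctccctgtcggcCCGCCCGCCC
Sparc: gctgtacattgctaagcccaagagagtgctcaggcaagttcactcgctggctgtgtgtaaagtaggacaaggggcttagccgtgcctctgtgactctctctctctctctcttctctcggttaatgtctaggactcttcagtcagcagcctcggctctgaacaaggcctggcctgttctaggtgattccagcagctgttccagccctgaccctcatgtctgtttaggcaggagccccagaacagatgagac
Thbs2: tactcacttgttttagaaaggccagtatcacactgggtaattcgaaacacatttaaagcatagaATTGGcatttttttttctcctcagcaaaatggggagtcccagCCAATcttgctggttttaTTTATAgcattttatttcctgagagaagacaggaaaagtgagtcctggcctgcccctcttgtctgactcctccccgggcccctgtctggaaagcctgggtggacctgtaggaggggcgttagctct

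The motifs searched were the TATA box with the letters TATAAA, the CCAAT box with its own 5 letters, the GC box with the letters GGGCGG, the AP-1 site with the letters TGANTCA, the TEAD site with the letters GGAATG and the CArG box, the site of serum response factor. The windows of Fmod and Sparc, the highest gene of each class, held none of the 6. That of Bgn held 3 GC boxes, of which those at the 3′ end overlap each other, and 32.7% of all 32851 RefSeq promoter windows of this length hold the motif. That of Thbs2 held 1 TATA box and 2 CCAAT boxes, motifs found in 12.4% and 33.8% of windows. Of the windows not printed, Postn had a TATA box with its first base 26 bases before the start, Spp1 had 1 TATA box and 1 CCAAT box, and Tnc had 1 TATA box and 1 GC box. GC content was 64.4% in the window of Bgn and between 43.6% and 54.0% in the other 6, with a median of 52.4% over all windows. No window held an AP-1 site, a TEAD site or a CArG box, which 6.75%, 12.6% and 1.47% of all windows hold. The RefSeq start of Sparc lies 3103 bases inside the GENCODE gene.

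The 10 genes spread from 0 counts for Lum to 1555 ± 46.1 CPM (SD, n = 3) for Sparc. In each library, 7 of the 10 reached 1 CPM, against 51.6% of 21547 protein-coding genes, and 9 of the 10 were above 3 counts, against 59.0%. Together they took 3096 CPM, or 0.310% of all counts. Sparc alone gave 50.2% ± 0.882 of that sum (SD, n = 3) and Thbs1 34.4% ± 1.13. These are bulk libraries, in which fewer cells making an RNA and less of it per cell cannot be told apart.

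**Figure D1:**
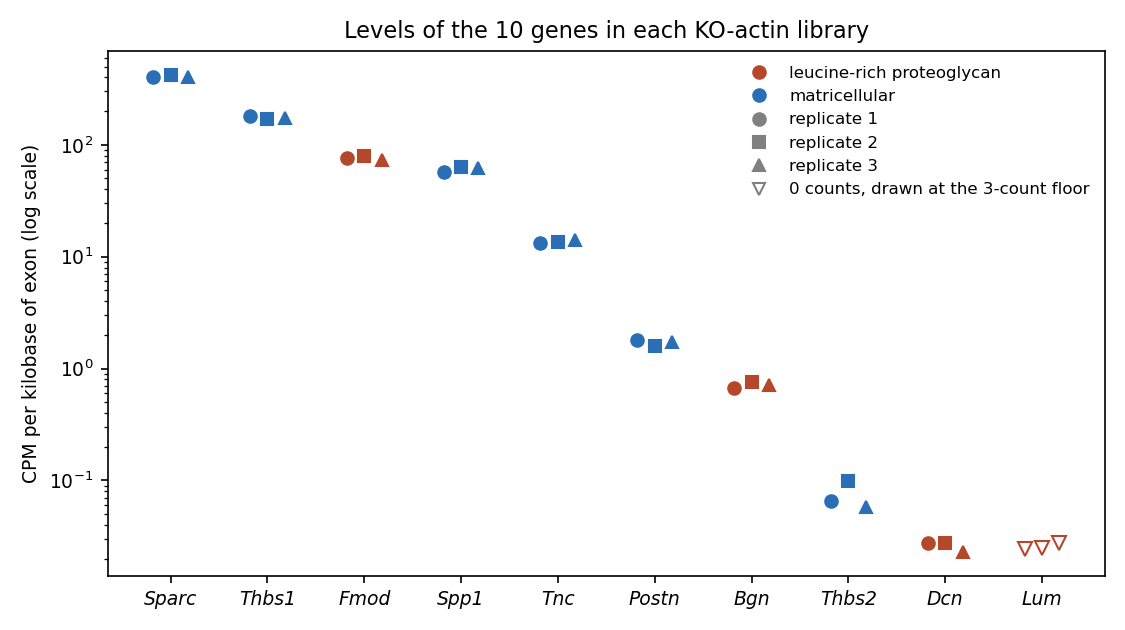
CPM per kilobase of exon (log axis) of the 10 genes in replicates 1 to 3 of KO-actin MEFs, proteoglycans in red and matricellular genes in blue, with Lum drawn at the limit of 3 counts because it had 0 in each library. The symbols of 1 gene lie close together, while the genes run from 411 CPM per kilobase for Sparc to 0.0261 for Dcn.

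Among the proteoglycans, Fmod was the one gene with a high level. Fibromodulin carries keratan sulfate and binds type I collagen in tendon and cartilage. Fmod (ENSMUSG00000041559, chromosome 1, 134037254 to 134048277, plus strand) had 12555, 12977 and 10773 counts, or 252, 263 and 241 CPM. Replicate 2 was highest and replicate 3 lowest, by 1.09-fold. Per kilobase the mean was 76.2 ± 3.36 CPM (SD, n = 3), above 97.2% of protein-coding genes. Fmod held 98.2% ± 0.0894 of the CPM of the 4 proteoglycans. The genes nearest to it in mean level, without regard to function, were Ndufs5 with 76.4 ± 4.28 and Cox7a2l with 76.0 ± 1.11 CPM per kilobase (SD, n = 3).

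Bgn was detected at a low level. Biglycan, which carries chondroitin or dermatan sulfate chains, is the closest relative of decorin. Bgn (ENSMUSG00000031375, chromosome X, 73483602 to 73495933, plus strand) had 203, 230 and 193 counts, or 4.07, 4.67 and 4.32 CPM. Replicate 2 was again the highest, and the mean of 0.713 ± 0.0494 CPM per kilobase (SD, n = 3) lay above 51.4% of protein-coding genes, near their median of 0.520. It was below 6.43, the median of the protein-coding genes above 3 counts in each library. Fmod exceeded Bgn per kilobase 114-fold, 104-fold and 103-fold in replicates 1 to 3.

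Dcn was near the limit of detection. Decorin carries a single glycosaminoglycan chain. Dcn (ENSMUSG00000019929, chromosome 10, 97479609 to 97518143, plus strand) had 8, 8 and 6 counts, or 0.160, 0.162 and 0.134 CPM. The libraries were alike and each lay a little above the limit of 3 counts. The 22 counts in all put the level between 0.0958 and 0.232 CPM (exact Poisson 95% interval, counting error only). Fmod was 2931-fold above Dcn per kilobase, with 2771-fold in the lowest library and 3171-fold in the highest, and with a counting interval of 1924-fold to 4651-fold. Bgn was 27.4-fold above Dcn, with a counting interval of 17.8-fold to 43.8-fold.

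Lum was not detected at this depth. Lumican is a keratan sulfate proteoglycan of cornea and skin. Lum (ENSMUSG00000036446, chromosome 10, 97565128 to 97572703, plus strand) had 0 counts in replicates 1, 2 and 3. Set against the limit of 3 counts per library, Fmod was at least 3099-fold, 3203-fold and 2659-fold higher per kilobase in replicates 1 to 3. Because Lum has 2.45 kb of exon and Dcn 5.84 kb, the limit of 3 counts for Lum per kilobase is close to the level of Dcn in each single library. Pooled over the 3 libraries, the exact Poisson 95% intervals per kilobase, which cover counting error only, did not overlap: 0.0164 to 0.0397 CPM for Dcn and at most 0.0105 CPM for Lum.

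Sparc was the highest of the 10 genes. Its product, also called osteonectin, binds collagen and calcium and takes part in collagen assembly. Sparc (ENSMUSG00000018593, chromosome 11, 55394500 to 55423183, minus strand) had 76559, 79238 and 68062 counts, or 1534, 1608 and 1523 CPM. Replicate 2 was highest, and highest and lowest differed by 1.06-fold. The mean of 411 ± 12.2 CPM per kilobase (SD, n = 3) was above 99.7% of protein-coding genes, between Ran with 413 ± 10.6 and Actb with 405 ± 9.68. Sparc exceeded Fmod, the top proteoglycan, by 5.32-fold, 5.33-fold and 5.51-fold per kilobase.

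Thbs1 stood second. Thrombospondin 1 binds CD47 and CD36 and activates latent TGF-β. Thbs1 (ENSMUSG00000040152, chromosome 2, 118111876 to 118127133, plus strand) had 54452, 51214 and 47445 counts, or 1091, 1039 and 1062 CPM. Here replicate 2 was the lowest library and replicate 1 the highest, by 1.05-fold. The mean was 175 ± 4.27 CPM per kilobase (SD, n = 3), above 99.1% of protein-coding genes. An antisense lincRNA, Gm29233, overlaps 3.42% of its exons and had 8 to 13 counts. The authors' strand setting is not given in the sources used here, so reads of that stretch cannot be assigned to either gene.

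Thbs2, which encodes a closely related thrombospondin, lay at the other end. Thbs2 (ENSMUSG00000023885, chromosome 17, 14665500 to 14694235, minus strand) had 23, 34 and 18 counts, or 0.461, 0.690 and 0.403 CPM. Replicate 2 was 1.71-fold above replicate 3, the widest ratio of the 8 genes with enough counts to test, yet the libraries did not differ beyond counting error (adjusted p = 0.197, chi-square test with Benjamini-Hochberg adjustment over all genes tested). Its 75 counts in all put the level between 0.410 and 0.653 CPM (exact Poisson 95% interval). Per kilobase, Thbs1 was 2730-fold, 1737-fold and 3039-fold above Thbs2 in replicates 1 to 3. Thbs3, of the other structural subgroup of thrombospondins, had 8.40 ± 0.143 CPM per kilobase (SD, n = 3), 20.9-fold below Thbs1 and 117-fold above Thbs2, and Thbs4 had 0 counts in each library.

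Spp1 and Tnc had intermediate levels. Osteopontin is a phosphorylated glycoprotein of bone and of activated macrophages that binds integrins and CD44. Spp1 (ENSMUSG00000029304, chromosome 5, 104435118 to 104441050, plus strand) had 4663, 5167 and 4521 counts, or 93.4, 105 and 101 CPM, lowest in replicate 1 and highest in replicate 2. The mean of 60.6 ± 3.54 CPM per kilobase (SD, n = 3) lay above 96.2% of protein-coding genes. Gm42793, an unproven gene model on the same strand with 2 to 5 counts, overlaps 18.8% of the exons of Spp1. Of the 50-base windows of Spp1, 9.05% also occur in transcripts of other genes, so the value of Spp1 depends on how shared reads were counted. Of 6 macrophage markers, 2 were above 3 counts in each library, Ptprc was at 0, 1 and 0 counts and Adgre1 at 1, 0 and 0, and the sum of 7.51 to 10.3 CPM was led by Cd68. Of 6 osteoblast markers, Runx2 had 52.0 CPM, Alpl had 36, 35 and 39 counts and Sp7 3, 4 and 3, whereas Ibsp, Dmp1 and Bglap had at most 2 counts in any library. The part of such cells in the level of Spp1 was not tested.

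Tenascin C is a large hexameric glycoprotein of embryonic and healing tissue. Tnc (ENSMUSG00000028364, chromosome 4, 63959785 to 64047015, minus strand) had 5119, 5134 and 4913 counts, or 103, 104 and 110 CPM. Replicate 3 was the highest, by 1.07-fold over replicate 1. In CPM, Tnc and Spp1 were close, but Tnc has 7.77 kb of exon and Spp1 1.65 kb. Per kilobase Tnc had 13.2, 13.4 and 14.1 CPM, a mean of 13.6 that lay above 81.1% of protein-coding genes and 4.46-fold below Spp1. Tnxb, which encodes tenascin X of loose connective tissue, had 0.617 CPM per kilobase, 22.0-fold below Tnc. Tnn, which encodes tenascin N, had 1, 1 and 0 counts.

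Postn was lower again. Periostin is a fasciclin-domain protein of periosteum and tendon that helps collagen to be crosslinked. Postn (ENSMUSG00000027750, chromosome 3, 54361109 to 54391037, plus strand) had 782, 683 and 674 counts, or 15.7, 13.9 and 15.1 CPM. Replicate 1 was highest and replicate 2 lowest, by 1.13-fold. The mean of 1.71 ± 0.106 CPM per kilobase (SD, n = 3) was above 56.4% of protein-coding genes, but below 6.43, the median of those above 3 counts in each library. Tgfbi, its nearest relative, was 3.03-fold lower per kilobase, with 2.31-fold to 3.48-fold in single libraries.

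Ordered by mean CPM per kilobase, the genes ran Sparc, Thbs1, Fmod, Spp1, Tnc, Postn, Bgn, Thbs2, Dcn and Lum. The means came from the same 3 libraries, so the direction of each pair on the mean was set by the order itself. In 8 of the 9 neighbouring pairs the higher gene was higher in each library and the ranges did not overlap. The closest of these was Fmod over Spp1, by 1.34-fold, 1.25-fold and 1.19-fold. The widest step was Bgn over Thbs2, by 10.1-fold, 7.77-fold and 12.3-fold, followed by Tnc over Postn with 7.96-fold. An exact sign-flip permutation test, two-sided, gave p = 0.25 for each of the 8 (adjusted 0.281 over the 9 pairs), which is the smallest p that 3 libraries allow, so the order rests on the spread between libraries rather than on a test. The remaining pair, Dcn and Lum, was not separated by the limit of 3 counts within each library, but 9 of 9 pairs differed without replicate 3 or per kilobase of the longest transcript, and the pooled counting intervals of Dcn and Lum did not overlap.

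The rule for these genes sets leucine-rich proteoglycans against matricellular genes. The 6 matricellular genes summed to 2837, 2871 and 2812 CPM and the 4 proteoglycans to 256, 268 and 246 CPM. The lowest matricellular sum was thus far above the highest proteoglycan sum, and the ratio was 11.1, 10.7 and 11.5 in replicates 1 to 3. Per kilobase the ratio of the sums was 8.60. Without Sparc and Fmod, the top gene of each class, the ratio of the CPM sums was 286, because little is left of the proteoglycan sum without Fmod. The median gene of each class differed by 7.66, 7.65 and 7.72 on the log2 scale of CPM per kilobase, a mean of 7.68 ± 0.04 (SD, n = 3), or 205-fold. These are medians of log2 values, 4.84 and −2.84, each midway between a pair of levels on the log scale. For them the 0 counts of Lum were set to the limit of 3 counts. In replicate 3 Dcn lay at 0.839-fold of that limit per kilobase. The proteoglycan median of replicate 3 therefore lay between Bgn and the limit for Lum, and the SD of 0.04 rests in part on that limit. Taken without the logarithm, the medians were 37.1 CPM per kilobase for the matricellular genes and 0.370 for the proteoglycans, a smaller ratio. The median was 0.520 for all protein-coding genes and 6.43 for those above 3 counts in each library. The ratios of class sums and the difference of log2 medians each had an exact sign-flip permutation p of 0.25, two-sided, again the smallest possible. The difference of medians depended on the length used: it was 5.85 per kilobase of coding sequence, 7.09 per kilobase of the longest transcript and 6.98 without division by length.

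The classes overlapped gene by gene. Fmod lay above 4 of the 6 matricellular genes (Spp1, Tnc, Postn and Thbs2) and Bgn above Thbs2. Thbs2 in turn was above Dcn, by 2.40-fold, 3.54-fold and 2.50-fold per kilobase in replicates 1 to 3, and the ranges of the pair did not overlap.

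The relatives of these genes, from lists made with earlier results of these data known, also spanned wide levels inside each class. Of 13 other small leucine-rich proteoglycans, 5 reached 1 CPM in each library and 10 were above 3 counts, against 51.6% and 59.0% of protein-coding genes. Kera and Epyc, which encode keratocan and epiphycan, had 0 counts in each library. The highest was Podnl1 with 48.5 ± 1.65 CPM (SD, n = 3), or 13.7 CPM per kilobase, below Fmod. The 13 summed to 84.4 to 89.9 CPM. Their median was 0.116 CPM per kilobase, against 0.370 for the 4 genes described here. It was 0.520 for all protein-coding genes and 6.43 for those above 3 counts in each library. Of 24 other matricellular genes, 13 reached 1 CPM in each library and 15 were above 3 counts, against the same 51.6% and 59.0%. In each library 6 were at or under 3 counts (Thbs4, Tnn, Ibsp, Dmp1, Dspp and Mepe). Ccn1, which encodes a secreted integrin ligand of the CCN family, was the highest at 1280 ± 62.2 CPM (SD, n = 3), or 634 CPM per kilobase, and so stood above Sparc. Their median was 0.402 CPM per kilobase, against 37.1 for the 6 genes described here. Sparcl1, the nearest relative of Sparc, had 1.15 CPM per kilobase, 357-fold below it.

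**Figure D2:**
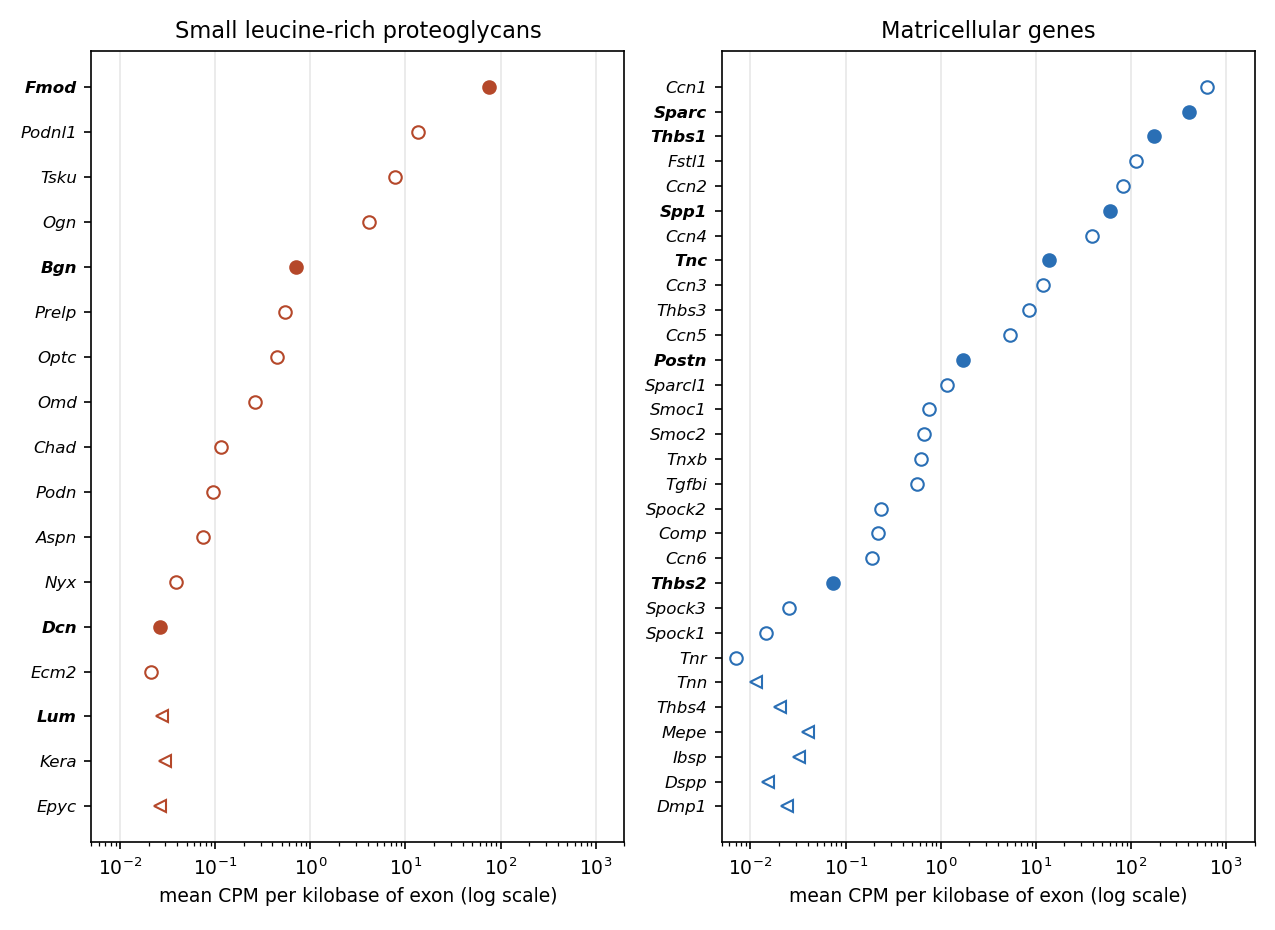
Mean CPM per kilobase of exon (log axis) over the 3 KO-actin libraries for small leucine-rich proteoglycans (left) and matricellular genes (right), with the 10 genes filled and in bold, and triangles for genes at or under 3 counts in each library, drawn at that limit. Fmod is the highest of its family, Ccn1 and Sparc lead the other, and the relatives fill the range between the extremes.

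The neighbourhood of the genes on the chromosomes gave 3 stretches with several family members. On chromosome 10, Dcn, Lum, Kera and Epyc follow one another on the plus strand, with a gap of 47.0 kb from Dcn to Lum and 34.2 kb from Lum to Kera. Dcn had 22 counts over the 3 libraries and the other 3 genes had none. The nearest protein-coding gene before them, Btg1, lies 857 kb away and had 91.4 CPM. The low level thus covered the whole run of these 4 proteoglycan genes.

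On chromosome 1, Fmod lies beside Prelp and Optc, which encode prolargin and opticin, members of the same family. The gap from Prelp to Fmod is 116 kb. Prelp had 1.95 ± 0.265 CPM and Optc 1.15 ± 0.0990 CPM (SD, n = 3), so Fmod was 142-fold above Prelp and 171-fold above Optc per kilobase. Btg2, 26.9 kb beyond Fmod, had 14.0 CPM. The high level was therefore found for Fmod and not for its family neighbours.

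On chromosome 5, Spp1 is the last gene of a run that encodes acidic phosphoproteins of bone and tooth. Sparcl1 stands before the run with 3.38 ± 0.199 CPM (SD, n = 3). Between it and Spp1 lie Dspp, Dmp1, Ibsp and Mepe, with 0 counts for Dspp and Mepe and at most 1 count in any library for Dmp1 and Ibsp. Spp1 had 99.8 ± 5.83 CPM, and Pkd2, 18.4 kb beyond it, had 128 CPM.

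**Figure D3:**
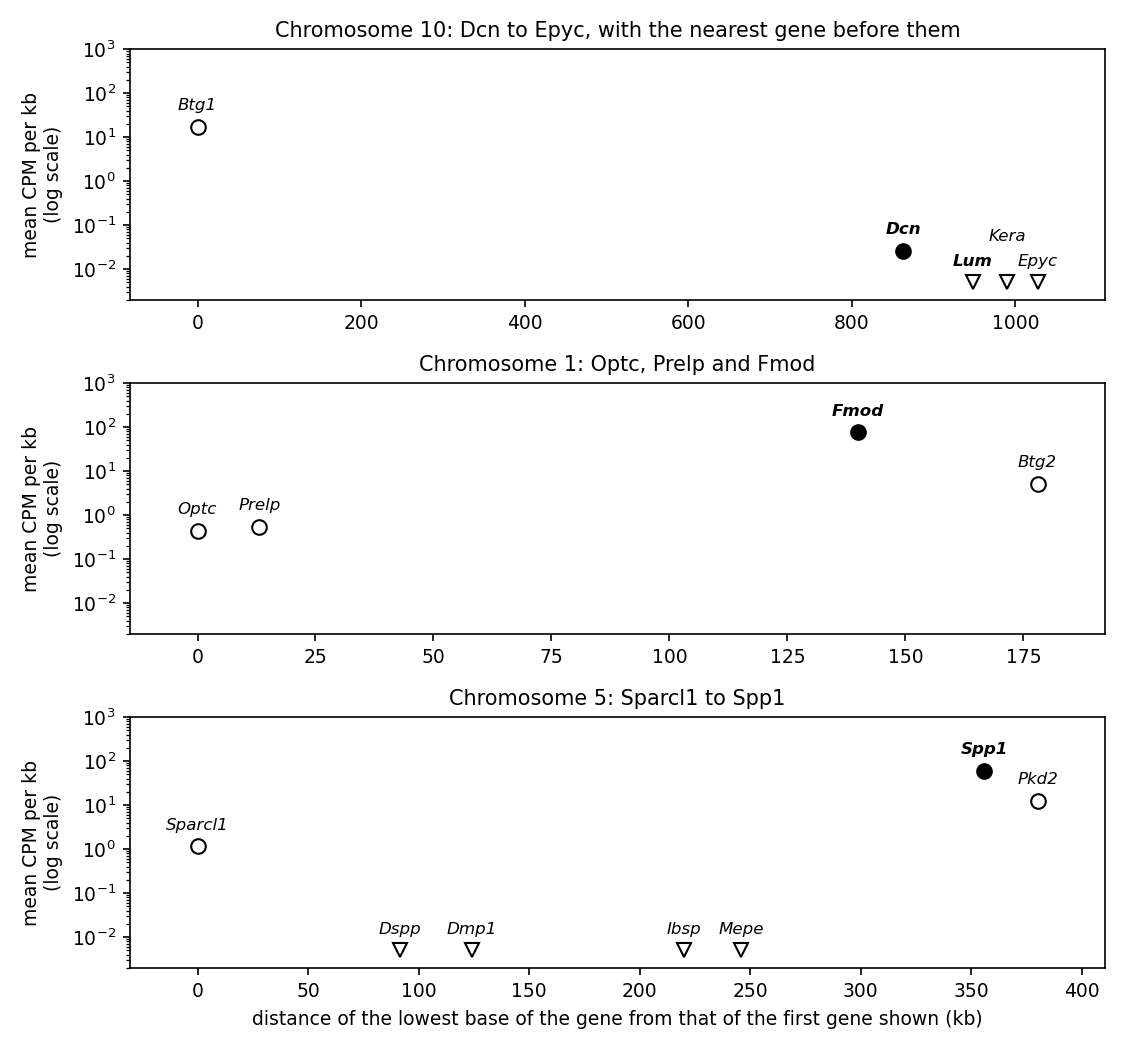
Mean CPM per kilobase of exon (log axis) against the distance along the chromosome, in kilobases from the first gene shown, for the runs that hold Dcn and Lum, Fmod, and Spp1, with these 4 genes in bold. Triangles at the foot mark genes with at most 3 counts in each library: Lum, Kera and Epyc beside Dcn, and Dspp, Dmp1, Ibsp and Mepe before Spp1.

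For the other 6 genes, the nearest protein-coding genes on each side belong to other families, apart from Smoc2 beside Thbs2. Sparc lies 23.5 kb from Atox1, with 50.9 CPM, and 57.9 kb from Fat2, with 0.611 CPM. Thbs1 lies 3.29 kb from Fsip1, with 0.0704 CPM per kilobase, and 769 kb from Rasgrp1, with 0.0409, so its 175 CPM per kilobase stood between genes at low levels. Thbs2 stands between Smoc2, a matricellular gene with 4.69 CPM, and Wdr27, with 1 count in each library. Bgn stands between Haus7, with 51.2 CPM, and Atp2b3, with 2, 9 and 6 counts. Tnc stands between Tnfsf8, with 0 counts, and Pappa, with 7.11 CPM. Postn stands between Trpc4, with 0, 2 and 0 counts, and Supt20, with 62.4 CPM.

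The libraries differed from one another beyond counting error in part of these genes. A chi-square test of the counts against the library sizes was run on the 13814 genes with at least 10 counts in each library, with Benjamini-Hochberg adjustment over all of them. It called 43.9% of the genes tested, a share that fell to 12.5% (1748 of 14037) without replicate 2. Of the 8 genes that could be tested it called 5, namely Sparc (adjusted p = 1.83e-27), Thbs1 (5.14e-13), Fmod (1.38e-09), Spp1 (4.39e-07) and Tnc (0.00454). Bgn (0.458), Thbs2 (0.197) and Postn (0.111) did not pass, and Dcn and Lum had too few counts. Calls rise with depth over all genes: the test called 24.8% of genes from 1 to 10 CPM, 47.4% from 10 to 100 CPM, 75.1% from 100 to 1000 CPM and 95.5% from 1000 to 10000 CPM.

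The size of these differences was small. The SD of log2 CPM between libraries was 0.04 for Sparc and Thbs1, against a median of 0.05 over the 67 genes from 1000 to 10000 CPM. It was 0.05 for Tnc and 0.06 for Fmod, against 0.05 over genes from 100 to 1000 CPM. It was 0.09 for Spp1 and Postn, where the median of genes from 10 to 100 CPM was 0.07, and 0.10 for Bgn, where that of genes from 1 to 10 CPM was 0.16. Thbs2, with its 75 counts, had 0.40. The libraries behind the calls were not the same from gene to gene: without replicate 1 Spp1 was no longer called (adjusted p = 0.113), without replicate 2 Sparc was not (0.428) and without replicate 3 Tnc was not (0.584), all by the same chi-square test. Fmod and Thbs1 passed without any 1 library.

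The deviation of replicate 2 moved with the GC content of the transcripts and is therefore given beside that of genes of like GC content. On the log2 scale, replicate 2 minus the mean of replicates 1 and 3 was 0.10 for Fmod, 0.07 for Sparc and −0.15 for Postn, where the median of genes within 1 percentage point of GC was 0.05, 0.04 and −0.16. It was −0.05 for Thbs1 and −0.03 for Tnc, against 0.00 and 0.04. Spp1 deviated by 0.11 where genes of its GC content had a median of −0.08 and quartiles of −0.15 and −0.01. For Bgn it was 0.16 and for Thbs2 0.68, against medians of 0.02 and −0.01, both above the upper quartiles of 0.10 and 0.06. The genes compared were alike in GC content but not in depth. Neither Bgn nor Thbs2 varied beyond counting error (adjusted p = 0.458 and 0.197, chi-square test). When library sizes were set separately in 50 bins of GC, the chi-square test called 29.9% of all genes, 4133 in place of 6063, and the same 5 genes, with an adjusted p of 1.37e-07 for Sparc and 0.00423 for Fmod.

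**Figure D4:**
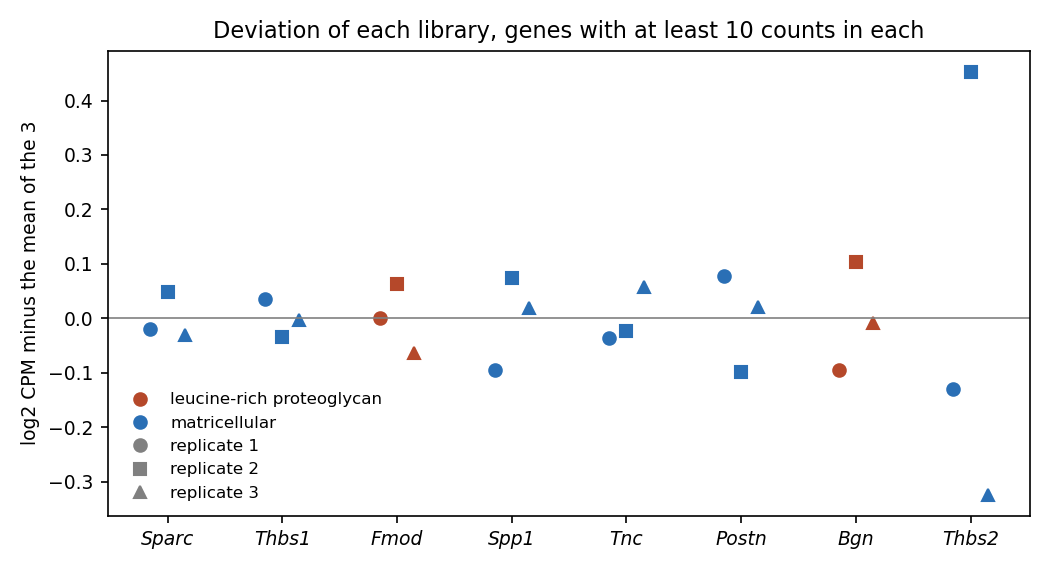
Log2 CPM of each KO-actin library minus the mean of the 3, for the 8 genes with at least 10 counts in each library, by class (colour) and replicate (symbol). Deviations stay within about 0.1 for the other genes, while Thbs2, which has 75 counts in all, spreads with an SD of 0.40.

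Of 15 receptor genes examined, 12 were above 3 counts in each library, against 59.0% of protein-coding genes, and 10 reached 1 CPM, against 51.6%. Itgb1, the integrin β1 chain, was the highest with 828 ± 39.4 CPM (SD, n = 3), or 203 CPM per kilobase. Among receptors that bind osteopontin, thrombospondin 1 or periostin, Cd44 had 190 ± 7.62 CPM, Cd47 79.7 ± 3.91 CPM, Itgav 216 ± 12.3 CPM and Itgb5 196 ± 7.39 CPM (SD, n = 3). The other integrin chains of the list were lower: Itgb3 had 11.5 ± 0.838 CPM (SD, n = 3), Itga8 4, 2 and 2 counts and Itga9 5, 4 and 3. Cd36, a thrombospondin receptor of macrophages, fat cells and endothelium, had 0, 1 and 0 counts. Of the 10 receptor genes tested, 7 varied between libraries beyond counting error, against 43.9% of all genes, a share not matched for depth.

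The enzymes that build and process proteoglycan chains were read from a list of 25 genes, of which 22 were above 3 counts and 22 reached 1 CPM in each library, against the same 59.0% and 51.6%. Xylosyltransferase starts a chain on the core protein. Of its pair of genes, Xylt2 had 1902, 2105 and 1674 counts, or 39.4 ± 2.86 CPM (SD, n = 3), and Xylt1 had 0 counts in each library. The highest level per kilobase was B3gat3, which adds the last sugar of the linker, with 32.9 CPM per kilobase. Chsy3, a chondroitin synthase, had 0 counts in each library, while Chsy1 had 23.6 ± 1.16 CPM (SD, n = 3). Chpf, which encodes the chondroitin polymerizing factor, had 96.5 ± 9.55 CPM. Chst1, a sulfotransferase of keratan sulfate, the chain that Fmod can carry, had 28.3 ± 1.09 CPM (SD, n = 3). Other chain enzymes of the list lay on both sides of Chst1. Chst11 had 93.8 CPM and Fam20b 78.1 CPM, whereas B4galt4 had 6.24 CPM, B3gnt2 3.09 CPM and B3gnt7 only 16, 3 and 6 counts. Bmp1, the protease that removes the propeptide of biglycan, had 110 ± 1.11 CPM (SD, n = 3). Of 22 tested, 13 varied between libraries beyond counting error, against 43.9% of all genes, again not matched for depth.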

How the data were processed

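The data were 3 RNA-Seq libraries of KO-actin MEFs, made from polyadenylated RNA. For each, the authors deposited a table of read counts by Ensembl gene, which had not been normalized. The submitters' processing notes name Trimmomatic, FastQC, HISAT2, HTSeq and the builds mm10 and GRCm38. Tool versions, strand setting, read length and the handling of reads shared between genes are not given in the sources used here, and these can change the values of overlapping genes. The study ran DESeq2 between conditions, which 1 condition does not allow.

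Symbols, coordinates and lengths came from GENCODE M21 on GRCm38, and 46005 of 46603 genes had a symbol and a length. Library totals were 44383636 to 49932446 counts, scaled by the TMM method (edgeR 4.0.16). Size factors of DESeq2 1.42.0 were an alternative, both run in R 4.3.3. CPM were divided by the union of exons in kilobases. A floor of 3 counts and 95% Poisson intervals cover counting error only. Ratios within a library were tested by exact sign-flip permutation, two-sided. Variation between libraries was tested by a chi-square (2 degrees of freedom) on genes with at least 10 counts in each library, with Benjamini-Hochberg adjustment at 0.05, and the procedure was tested on simulated data. Scripts ran in Python 3.11.15 and used scipy 1.17.1, pandas 2.3.3, numpy 2.4.6 and, for figures, matplotlib 3.10.9. Promoter sequences were read from RefSeq (GRCm38.p6).

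The genes and lists were chosen with earlier results of these data known. Genes were named if they were among the 10, if they were the highest or lowest per kilobase of a list or at or under 3 counts in every library, if they neighbour 1 of the 10 on its chromosome, or if they stood next in level to the top gene of each class. Among the lists, relatives, receptors and chain enzymes outside this rule (Thbs3, Tnxb, Tgfbi, Cd44, Cd47, Itgav, Itgb5, Xylt2, Chpf, Chst1, Bmp1 and others) were named after their values were seen. The alternatives left out each library, changed the scaling, the length, the count filter and the genes summed, or set library sizes within GC bins. No columns of unknown sample were present.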

Additional observations from a re-analysis of the deposited data

How the results depend on the processing

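The ratio of the class sums was 10.9 to 11.3 without each library in turn, against 11.1, and the difference of medians was 7.65 to 7.69, against 7.68. The number of neighbouring pairs that differed was 8 to 9 without each library, 8 per coding length, 9 per longest transcript and 8 in CPM, where Tnc stood above Spp1. Of the 10 genes, 4 varied beyond counting error without each library in turn, and 5 did under every other scaling, filter and GC setting. Over all genes the count was 1748 to 4786 without each library, against 6063. Without replicate 2 it was 1748, or 12.5% of the 14037 genes then tested, against 43.9% with all libraries. Library scaling moved no mean CPM of the 10 genes by more than 0.115%. The number of genes at 1 CPM or more was 7 throughout, and 9 were above 3 counts. No paired analysis was possible because all libraries belong to 1 condition and no groups were compared. With 3 libraries no exact sign-flip permutation test can pass 0.05. Depth limits Dcn, Lum and Thbs2, and exonic length limits comparisons between genes.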

Other observations

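On chromosome 13, a further run of proteoglycan genes holds Ecm2, Aspn, Omd and Ogn on the plus strand, none of them among the 10 genes described. Ecm2 had 6, 3 and 8 counts, Aspn, which encodes asporin, 5, 12 and 8, and Omd, which encodes osteomodulin, 33, 19 and 32. Ogn, which encodes mimecan (osteoglycin), was the highest of the run with 564, 505 and 474 counts, or 10.7 ± 0.535 CPM (SD, n = 3). Levels thus differed along this run as well, with Ogn at 4.18 CPM per kilobase and Ecm2, at its other end, at 0.0211.

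Markers of tissues in which these genes are well known were mixed. Of 3 tendon markers, Scx had 42.2 CPM and Mkx 10.9 CPM, while Tnmd, a late tendon gene, had 0 counts in each library. Of 6 chondrocyte markers, Sox9 had 12.8 CPM, Col2a1 1.89 CPM and Comp 0.646 CPM, while Acan had 1, 0 and 1 counts, Matn1 0, 1 and 0, and Col9a1 0 in each. Of 5 smooth muscle markers, 4 reached 1 CPM in each library, namely Cnn1 with 262, Lmod1 with 95.2, Smtn with 92.6 and Des with 10.4 CPM, and Myh11 had 0.112 CPM. The endothelial markers summed to 1.99 to 2.54 CPM, led by Kdr with 2.09 CPM, and Cd68, the highest of the macrophage markers, had 8.57 CPM. The osteoblast markers summed to 50.8 to 55.1 CPM, nearly all of it Runx2. The part of such cells or states in the levels of the 10 genes was not tested.

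The variation test called none of the 7 other small leucine-rich proteoglycans tested at an adjusted p under 0.05, and 1 of them had an unadjusted p under 0.05 in the same chi-square test. It called 4 of 14 other matricellular genes, against 43.9% of all genes. These shares are not matched for depth: the highest of the other proteoglycans, Podnl1, had 48.5 CPM. Over all genes the test called 24.8% from 1 to 10 CPM and 75.1% from 100 to 1000 CPM.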
